A study of Mus musculus with 4 samples.

Results

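The 2 arrays examined here, of 4 in the series, held RNA from mouse intestinal organoids that were fl/fl at Tacc3, 1 collected at day 4 and 1 at day 6. They were chosen by their titles, and each difference is day 6 minus day 4. The other 2 arrays, from Tacc3 wt/wt organoids of the same days, served to show which day differences were smaller or absent without floxed Tacc3. Organoids are cultures of intestinal epithelium grown in a gel of basement membrane. All 4 cultures had received 4OHT (4-hydroxytamoxifen), the drug that switches on an inducible recombinase, for 24 hours. By the series design this recombined Apc, and in the fl/fl organoids the floxed Tacc3 as well, and days count from the treatment. The descriptions of single samples instead give day 4 as normal and day 6 as lacking Apc, in both genotypes, so the Apc state at day 4 remains unsettled. The labels used here name neither the recombinase and its promoter, nor the floxed exons, nor the strain, age and number of the mice.

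Tacc3 is a spindle protein that, bound to clathrin and ch-TOG, crosslinks the microtubules that pull chromosomes apart. Apc holds beta-catenin in check and thus limits Wnt signalling, which keeps crypt cells dividing and supports Paneth cells. The intestinal epithelium renews itself from crypt stem cells into absorptive enterocytes and into secretory cells, among them Paneth, goblet, enteroendocrine and tuft cells.

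Each group was 1 array, so no value has a replicate error, no difference was tested, and a gene was called by size alone, at 2-fold (1 on the log2 scale). Intensities are the deposited linear values. Differences are on the log2(intensity + 16) scale, which understates those of dim genes, and their scaling between arrays is unknown. Each gene was read by its brightest probe set, and the 11392 genes whose mean log2 value over the arrays was at least the median probe set's (5.04, or an intensity of 16.9) entered the counts. Median intensities were 16.5 at day 4 and 15.4 at day 6 in fl/fl organoids, and 17.7 and 15.8 in wt/wt organoids. The days also differed in a measure of RNA quality, the ratio of 5' to 3' signal. For Actb it was 0.0627 at day 4 and 0.261 at day 6 in fl/fl organoids, against 0.0610 and 0.180 in wt/wt organoids, and for Gapdh 0.142 and 0.524, against 0.208 and 0.411. On the log2 scale these ratios were higher at day 6 by 2.06 and 1.89 in fl/fl and by 1.56 and 0.99 in wt/wt organoids. The bacterial hybridization controls, which are spiked into the sample, were brighter at day 4 in both genotypes. They read a median of 1619 at day 4 and 645 at day 6 in fl/fl, and 2348 and 879 in wt/wt organoids. The part of either gap in the differences below was not tested.

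Tacc3 itself showed little difference between the days in fl/fl organoids. Its brightest probe set read 59.8 at day 4 and 49.7 at day 6, against 184 and 167 in wt/wt organoids. Both fl/fl arrays were thus low and both wt/wt arrays high. The day difference was -0.21 in fl/fl and -0.13 in wt/wt organoids. Its 2 dimmer probe sets were higher at day 6 in fl/fl organoids, by 0.32 and 0.30. The probe sets of Apc disagreed. In fl/fl organoids the brightest read 53.5 at day 4 and 149.6 at day 6 (a difference of 1.25), another read 45.1 and 97.1 (0.89), and the remaining one above the filter read 75.0 and 26.4 (-1.10). Whether any of these lie in the floxed exons is not known.

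The organoids read as epithelium on both days. All 8 epithelial markers were above the filter in fl/fl organoids, from 368 to 9151 at day 4 and from 735 to 9385 at day 6. All 5 mesenchymal markers (Col1a1, Col1a2, Col3a1, Pdgfra and Dcn) lay below the filter, at 5.30 to 17.2 and 4.09 to 12.8, as did all 3 endothelial markers, at 10.2 to 16.6 and 7.60 to 12.9. The 4 immune markers, 2 of them above the filter, read 4.53 to 25.1 and 6.40 to 19.5. These are the defining markers of longer lists. Of the whole lists, 6 of 17 mesenchymal genes lay above the filter, among them Fn1 at 209, Acta2 at 44.3 and Vim at 36.9 at day 4, and 3 of 11 endothelial genes, Eng at 57.2, Esam at 41.3 and Lyve1 at 17.5.

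Between day 4 and day 6, 1394 genes were 2-fold higher and 330 were 2-fold lower in fl/fl organoids, 12.2% and 2.9% of the genes above the filter. In wt/wt organoids 2082 were higher and 338 lower, 18.3% and 2.97%. After quantile normalization, which gives all arrays 1 distribution, the counts were 936 (8.22%) and 672 (5.9%) in fl/fl and 1195 (10.5%) and 1096 (9.62%) in wt/wt organoids. The share of higher genes among those called in fl/fl organoids moved from 80.9% to 58.2%. All 330 lower genes were among those 672, and all 936 higher genes among the 1394. The median difference over all genes above the filter was 0.00 in fl/fl and 0.17 in wt/wt organoids as deposited, and -0.11 and -0.12 after quantile normalization. No gene was 2-fold in opposite directions in the 2 genotypes. Of the 1394 higher genes, 1067 (76.5%) were 2-fold higher in wt/wt organoids too, 51.3% of the genes 2-fold higher there. Of the 330 lower genes, 154 (46.7%) were 2-fold lower there too, 45.6% of the genes 2-fold lower there. The 2 day differences share no array, and across genes, which are not independent replicates, they correlated at r = 0.80.

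The 12 genes with the largest excess at day 6 over day 4 in fl/fl organoids included several of absorptive cells. In bulk organoids, fewer cells of a type and less RNA per cell cannot be told apart, and nor can more of either. Enpep, a brush border aminopeptidase, read 28.5 at day 4 and 1182 at day 6, a difference of 4.75. The selenium carrier Selenop read 166 and 3336 (4.20), and Oat, which makes ornithine from glutamate semialdehyde and back, 229.9 and 3424 (3.81). As ratios of intensities these were 41.5-fold, 20.1-fold and 14.9-fold. Next were Mgst1, a membrane-bound glutathione transferase (3.77), the cytochromes Cyp2c65 (3.59), Cyp4f14 (3.45) and Cyp2c55 (3.39), the actin-severing protein Scin (3.53) and the sialyltransferase St3gal4 (3.45). The amino acid transporter Slc6a20a (3.42), the urea cycle enzyme Cps1 (3.41) and the fatty acid binding protein Fabp2 (3.40) completed the 12. Each was at least 2-fold higher in wt/wt organoids as well, by 2.44 (Fabp2) to 4.44 (Enpep).

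The 12 genes with the lowest day 6 level relative to day 4 included Clu, Msln and Ccn2 of the list of injured epithelium and Clps, Mptx1, Nupr1 and Mmp7 of the Paneth list. The matrix protein gene Fn1 read 209 at day 4 and 12.8 at day 6 in fl/fl organoids, a difference of -2.97, although the defining mesenchymal markers lay below the filter. Ptgs2, the inducible enzyme of prostaglandin synthesis, read 107 and 4.76 (-2.56). The chaperone gene Clu, a marker of reviving stem cells, read 5995 and 1046 (-2.50), with all 4 of its probe sets lower by 1.81 to 2.50. Msln (-2.38) and Ccn2, a target of YAP (-2.20), followed. The other 7 of the 12 were Clps (-2.07), Atg9b (-2.04), Nupr1 (-1.99), Mptx1 (-1.97), Ramp1 (-1.89), Nucb2 (-1.86) and Mmp7 (-1.84). In wt/wt organoids the same 12 genes were lower by 0.64 (Ramp1) to 2.20 (Ccn2).

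**Figure D1:**
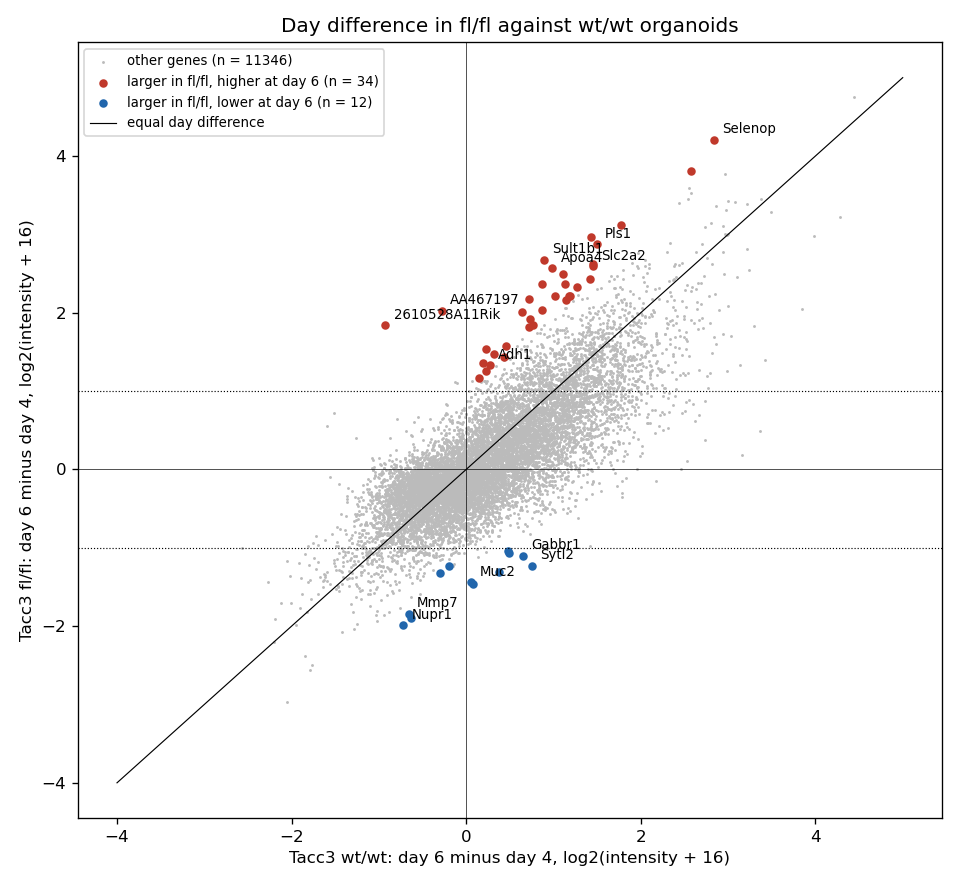
Each point is a gene above the filter, with its day 6 minus day 4 difference in wt/wt organoids on the x axis and in fl/fl organoids on the y axis, both on the log2(intensity + 16) scale, 1 array per group. Dotted lines mark 2-fold in fl/fl organoids and the solid diagonal an equal difference; the 34 genes in red and the 12 in blue lie at least 1 log2 unit from the diagonal on both scalings.

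A smaller set of genes had a 2-fold day difference in fl/fl organoids that exceeded that of wt/wt organoids by 1 or more on the log2 scale, both as deposited and after quantile normalization. They were 34 higher genes (0.298%) and 12 lower genes (0.105%). For the 34, the wt/wt difference was absent (within 0.32 of 0) in 7, smaller but in the same direction in 26 and opposite in 1; 15 of the 34 were 2-fold higher in wt/wt organoids too. For the 12, it was absent in 4 (Lyz2, Muc2, Reg4 and Serpina1c), smaller in 3 (Mmp7, Nupr1 and Ramp1) and opposite in 5 (Gabbr1, Hoxb4, Leng1, Serpina1b and Sytl2), and none was 2-fold lower in wt/wt organoids. The converse set, with the larger difference in wt/wt organoids by the same rule, held 178 higher and 18 lower genes. Just inside the rule were Rnf125 (a difference between the genotypes of 1.01) among higher genes and Ramp1 (-1.01 after quantile normalization) among lower genes, and just outside were Scd1 (0.99) and Slc44a2 (-0.99 after quantile normalization). Of the genes in these sets that had several probe sets above the filter, the probe sets had 1 direction in fl/fl organoids in 5 of 8 higher and in 3 of 3 lower genes. Among all genes called in fl/fl organoids the same held for 427 of 628 higher and 112 of 221 lower genes.

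Among the 34 higher genes, several act in the uptake and handling of fat and sugar. Apoa4, an apolipoprotein of chylomicrons, read 182 at day 4 and 1159.9 at day 6 in fl/fl, and 201 and 413 in wt/wt organoids, differences of 2.57 and 0.99, with the fl/fl array of day 6 above the other 3. Its other probe set differed by 2.86 and 1.06. Fbp1, the gluconeogenic fructose bisphosphatase, read 41.5 and 434 in fl/fl and 59.8 and 189 in wt/wt organoids (2.97 and 1.43). Npc1l1, the cholesterol importer of the brush border, read 27.2 at day 4 and 206 at day 6 in fl/fl, and 59.3 and 149 in wt/wt organoids, differences of 2.36 and 1.13. Unlike Apoa4, it differed more between the genotypes at day 4 (-0.80) than at day 6 (0.43). Slc2a2 carries glucose and fructose out of the cell on the blood side. It was below the filter's intensity on both day 4 arrays, at 5.37 in fl/fl and 6.97 in wt/wt organoids. At day 6 it read 113 and 46.7 (2.59 and 1.45). Its mean passed the filter only through the fl/fl array of day 6.

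Enzymes of detoxification and of the mucosal alcohol pathway were also in this set. Sult1b1, a cytosolic sulfotransferase, read 36.1 at day 4 and 317 at day 6 in fl/fl, and 74.7 and 152 in wt/wt organoids (2.68 and 0.89), so that fl/fl organoids held the lowest value at day 4 and the highest at day 6. The alcohol dehydrogenase genes Adh1 and Adh6a had little day difference in wt/wt organoids. Adh1 read 95.2 and 264 in fl/fl and 81.1 and 101 in wt/wt organoids (1.33 and 0.27), and Adh6a 58.2 and 175 in fl/fl and 42.9 and 51.3 in wt/wt organoids (1.36 and 0.19). For both, 3 arrays lay close together and the fl/fl array of day 6 stood above them. Cmbl, a hydrolase of the intestine and liver, differed by 2.36 and 0.86.

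Pls1, the fimbrin that bundles actin in microvilli, read 80.7 and 691 in fl/fl and 107 and 332 in wt/wt organoids (2.87 and 1.50). The brush border dipeptidase Dpep1 read 12.7 and 233 in fl/fl and 33.9 and 155 in wt/wt organoids (3.12 and 1.78); its second probe set differed by 1.60 and 1.08. S100g, the calcium-binding protein calbindin of enterocytes, read 68.3 and 458 in fl/fl and 98.2 and 230.1 in wt/wt organoids (2.49 and 1.11). In all 3, by the brightest probe set, the fl/fl array was the lower of the pair at day 4 and the higher at day 6. For Dpep1, however, that fl/fl day 4 value lay below the filter's intensity of 16.9. Its second probe set did not share the day 4 order, at 40.0 in fl/fl and 39.1 in wt/wt organoids. Cox7a1, a cytochrome oxidase subunit that read 10.9 at day 4, also below it, differed by 2.17 and 0.72, and Selenop and Oat, described above, by 4.20 and 2.84 and 3.81 and 2.58.

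The 2 higher genes with the largest gap between the genotypes were not higher at day 6 in wt/wt organoids. 2610528A11Rik, which encodes a secreted ligand of the receptor Gpr15, read 92.2 at day 4 and 371 at day 6 in fl/fl, and 223 and 110.0 in wt/wt organoids, differences of 1.84 and -0.93. The order of the genotypes was thus reversed between the days. AA467197, a small mitochondrial protein, read 63.9 at day 4 and 308 at day 6 in fl/fl, and 127 and 101 in wt/wt organoids (2.02 and -0.28), again with the fl/fl value lower at day 4 and higher at day 6. Each was read by 1 probe set above the filter.

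The remaining genes included some of other cell types or signals. The tuft cell genes Alox5ap, which is needed for leukotriene synthesis, and Rgs13, a regulator of G protein signalling, read 10.1 and 6.89 at day 4, both below the filter's intensity, and 59.5 and 125 at day 6 in fl/fl organoids. Their day differences were 1.53 and 0.22 for Alox5ap and 2.62 and 1.45 for Rgs13. The mean of Alox5ap passed the filter only through the fl/fl array of day 6. Id3, a direct target of BMP signalling, which is strongest toward the villus, read 26.5 and 144 in fl/fl and 20.3 and 44.2 in wt/wt organoids (1.92 and 0.73). Leap2, a liver and gut peptide that opposes ghrelin, read 13.7 and 66.6 in fl/fl organoids (1.48 and 0.32). The set also held Adtrp, Gng12, Bmp2k, Coa6, Eef1e1, Lrrc19, Mrpl50, Ncoa4, Pank3, Plbd1, Rnf125, Rpf1, Sec23a and Spryd7, with fl/fl differences of 1.16 (Lrrc19) to 2.43 (Sec23a). The gene's other probe sets above the filter included at least 1 in the opposite direction for Bmp2k (-0.19), Pank3 (-0.49) and Rpf1 (-0.10).

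Several of the 12 lower genes are products of secretory cells. Muc2, the gel-forming mucin of goblet cells, read 1611 at day 4 and 583 at day 6 in fl/fl, and 648 and 676 in wt/wt organoids (-1.44 and 0.06). Reg4, a lectin of secretory cells, read 731 at day 4 and 256 at day 6 in fl/fl, and 243 and 258 in wt/wt organoids (-1.46 and 0.08). For both genes the fl/fl array of day 4 stood alone at the top, and the other 3 lay close together. Sytl2, which docks secretory granules, read 209 and 79.7 in fl/fl and 52.6 and 99.2 in wt/wt organoids (-1.23 and 0.75). Its order reversed: the fl/fl value was the higher at day 4 and the lower at day 6.

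Paneth cell genes of this set had the same high fl/fl value at day 4. The protease Mmp7, which activates the antimicrobial defensins, read 6116 at day 4 and 1690.2 at day 6 in fl/fl, and 2701 and 1702 in wt/wt organoids (-1.84 and -0.66). Lyz2, a lysozyme that macrophages also make, read 2857 and 1136 in fl/fl and 1887 and 1533 in wt/wt organoids (-1.32 and -0.30). The stress-induced gene Nupr1 read 2164 and 533 in fl/fl and 1274 and 767 in wt/wt organoids (-1.99 and -0.72), and its other probe set differed by -1.69 and -0.69. The genotype difference of Mmp7 was 1.17 at day 4 and -0.01 at day 6.

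The other lower genes were the serpins Serpina1b and Serpina1c, the receptor partner Ramp1, the receptor subunit Gabbr1, Hoxb4 and Leng1. Serpina1b read 294 and 132 in fl/fl and 70.3 and 105 in wt/wt organoids (-1.07 and 0.49) and Serpina1c 123 and 43.2 in fl/fl and 29.7 and 23.8 in wt/wt organoids (-1.23 and -0.20). These are near-identical copies of 1 gene family, and their signals may not be separable. Ramp1 read 309 and 71.5 in fl/fl and 104 and 61.4 in wt/wt organoids (-1.89 and -0.64), while its 2 probe sets below the filter differed by only -0.24 and -0.22 in fl/fl organoids. Hoxb4, a regional patterning gene, read 198 and 70.4 in fl/fl and 121 and 161 in wt/wt organoids (-1.31 and 0.37), and its second probe set had the same signs (-0.72 and 0.40). Gabbr1 differed by -1.11 and 0.65 and Leng1 by -1.04 and 0.48.

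**Figure D2:**
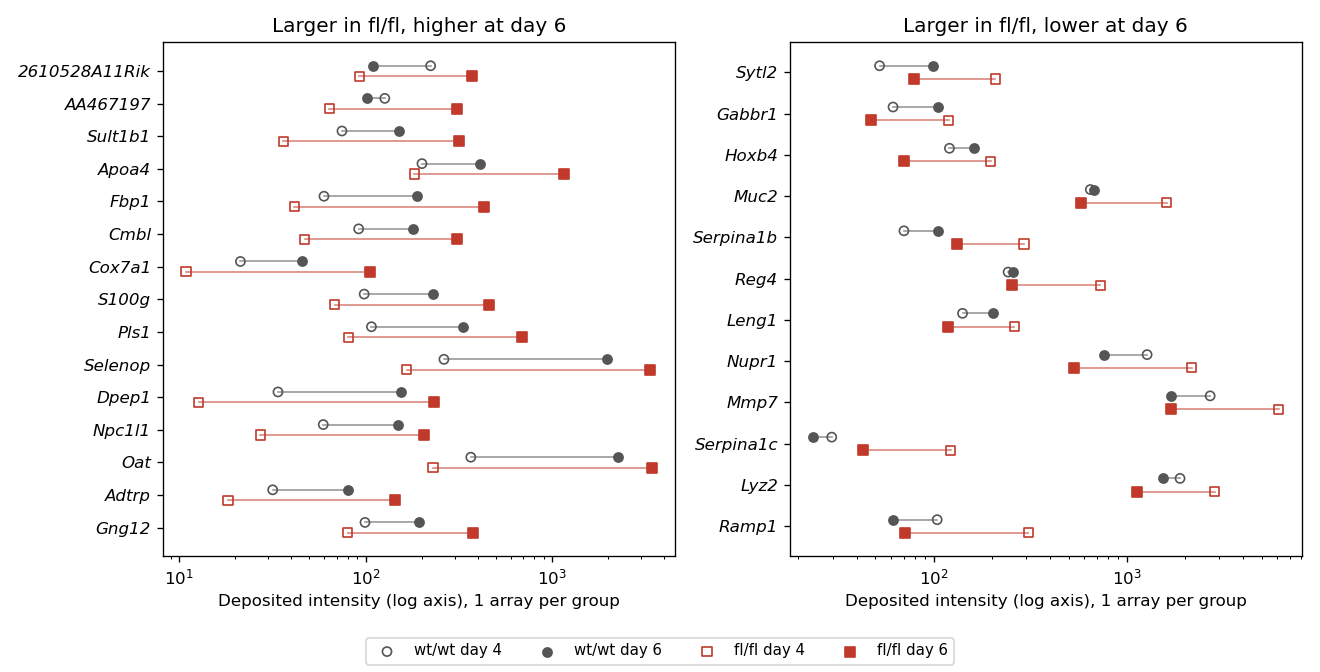
Deposited intensity on a log axis for the 15 higher genes (left) and the 12 lower genes (right) with the larger day difference in fl/fl organoids, as named by the rule; circles are wt/wt and squares fl/fl arrays, open for day 4 and filled for day 6, 1 array per group. On the right, the open squares of fl/fl day 4 lie highest for every gene; on the left, the filled squares of fl/fl day 6 do.

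The difference between the genotypes' day differences equals the genotype difference at day 6 minus that at day 4, so it can be split between the days. The split describes values that chose the genes and supports nothing beyond them. Of the 34 higher genes, all were brighter in fl/fl organoids at day 6 and 31 were dimmer in them at day 4, and the day 6 part was the larger in 25. Of the 12 lower genes, all were brighter in fl/fl organoids at day 4, 9 were dimmer at day 6, and the day 4 part was the larger in 10. Among all 11392 genes, 7595 were brighter in fl/fl organoids at day 4 and 6445 at day 6. A 2-fold genotype difference was present at day 6 in 10 of the 34, and at day 4 in 7 of the 12. Any feature of the single fl/fl array of a day enters all of these values, and its part was not tested.

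Promoters of these sets, shown because their genes shared a day pattern, were searched for short motifs on both strands. Windows of 250 bases before and 50 after each start, from RefSeq on GRCm38.p6, were found for 29 of the 34 higher genes (36 windows) and 11 of the 12 lower genes (12 windows). The letters AGATAA, a core that GATA factors bind, occurred in 6 of 36 windows (16.7%) and in 3 of 12 (25%), against 6.55% of the windows of all genes above the filter and 11.2% of all windows of the table. They were in the windows of Adh1, Adtrp, Cox7a1, Fbp1 and Rgs13 on the higher side and of Mmp7, Muc2 and Reg4 on the lower side. In the 36 higher windows AAAGTCC was in 2.78%, CCAAT in 22.2% and TTTGAA in 11.1%, and TTTATGG and ATCAAAG in none. In the 12 lower windows ATCAAAG was in 16.7%, CCAAT in 50% and TTTGAA in 16.7%, and AAAGTCC and TTTATGG in none; the windows with ATCAAAG were those of Mmp7, which overlap and share the same letters. The shares of these few windows rest on 0 to 8 matches each. Below are the 250 bases before the start for the 2 genes of each direction with the largest gap that held the letters, with AGATAA or its reverse complement TTATCT in capitals; these were chosen after the counts were seen. Fbp1 lies on the minus strand at chr13:62888283-62888532, Cox7a1 on the plus strand at chr7:30183921-30184170, Muc2 on the plus strand at chr7:141690090-141690339 and Reg4 on the plus strand at chr3:98221906-98222155.
Fbp1: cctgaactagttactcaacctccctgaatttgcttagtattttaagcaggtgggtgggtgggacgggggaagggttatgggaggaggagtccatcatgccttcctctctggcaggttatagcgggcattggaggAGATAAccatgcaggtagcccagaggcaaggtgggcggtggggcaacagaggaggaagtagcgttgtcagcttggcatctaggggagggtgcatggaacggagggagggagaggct
Cox7a1: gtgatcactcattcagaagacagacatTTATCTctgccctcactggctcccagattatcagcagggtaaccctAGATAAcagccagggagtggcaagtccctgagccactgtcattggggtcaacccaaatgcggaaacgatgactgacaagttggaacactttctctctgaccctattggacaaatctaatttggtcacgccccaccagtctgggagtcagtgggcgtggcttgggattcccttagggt
Muc2: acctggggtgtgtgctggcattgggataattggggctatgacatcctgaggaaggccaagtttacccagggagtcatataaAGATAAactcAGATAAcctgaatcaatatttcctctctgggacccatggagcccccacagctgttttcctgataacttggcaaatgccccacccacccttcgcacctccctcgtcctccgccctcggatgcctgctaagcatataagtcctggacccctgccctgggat
Reg4: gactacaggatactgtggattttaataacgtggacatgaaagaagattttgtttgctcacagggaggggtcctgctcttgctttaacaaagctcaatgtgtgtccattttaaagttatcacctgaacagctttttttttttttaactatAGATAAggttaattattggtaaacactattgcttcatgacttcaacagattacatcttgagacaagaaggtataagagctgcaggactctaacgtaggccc
Muc2 carries the letters at 169 and 159 bases before its start, Reg4 at 101, Fbp1 at 116 and Cox7a1 at 177, with the reverse complement at 223. The other motifs were AAAGTCC (HNF4), TTTATGG (CDX2), ATCAAAG (TCF/LEF), CCAAT (NF-Y) and TTTGAA (CHR, of cell cycle genes). Over all genes 2-fold higher in fl/fl organoids they were held by 5.3%, 2.26%, 2.26%, 38.9% and 15.1% of 1415 windows, against 3.93%, 1.77%, 2.48%, 37.5% and 11.9% of the windows of all genes above the filter. AGATAA was in 6.64% of those 1415, near the 6.55% of all. For the 2-fold lower genes the shares of 343 windows were 3.5%, 1.46%, 2.92%, 36.4% and 9.33%, and 7.29% for AGATAA. A match is a stretch of letters and not a measured binding site.

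The absorptive cell lists had positive median day differences in fl/fl organoids as deposited, and how near these lay to the wt/wt medians varied by class. Of 21 measured genes of fat absorption, 15 were 2-fold higher at day 6 in fl/fl organoids (71.4%, beside 12.2% of all genes) and 0 lower. The median difference was 1.31 (all genes 0.00) in fl/fl and 1.21 in wt/wt organoids (all genes 0.17). Of 5 apolipoprotein genes and Apobec1, the editing enzyme of Apob, all had the higher difference in fl/fl organoids, with medians of 2.37 and 1.26. For Apoa4, described above, this order was fixed in advance by the rule that picked it. Apoc3 read 124 at day 4 and 739 at day 6 in fl/fl, and 109.6 and 389.6 in wt/wt organoids (2.43 and 1.69), Apob read 169 at day 4 and 905 at day 6 in fl/fl, and 191 and 587 in wt/wt organoids (2.31 and 1.54) and Apoa1 differed by 2.45 and 2.40. The enzymes that rebuild and package triglyceride had medians of 1.11 and 1.27, with Mttp, which loads lipid onto Apob, at 2.89 and 2.34.

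Sugar and peptide handling split by class. All 5 measured genes of sugar transport and metabolism had the larger difference in fl/fl organoids, with a median of 2.59 against 1.43. Fbp1 and Slc2a2, among them, were picked by this same order, so for them it was fixed in advance. Slc2a2 also passed the filter only through its fl/fl day 6 value. The glucose importer Slc5a1 read 124 at day 4 and 931 at day 6 in fl/fl, and 127 and 545 in wt/wt organoids (2.76 and 1.97). The 10 amino acid and peptide transporters had the smaller median in fl/fl organoids, 0.39 against 0.77. Over all 26 transporters and sugar enzymes, 12 were 2-fold higher (46.2%, beside 12.2% of all genes) and none lower (median 0.76). Slc13a1, a sulfate carrier, read 11.6 at day 4 and 204 at day 6 in fl/fl, and 8.30 and 177 in wt/wt organoids.

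Peptidases of the brush border and enzymes of foreign compounds were also higher at day 6. Of 23 brush border genes, 10 (43.5%, beside 12.2% of all genes) were 2-fold higher (median 0.66, wt/wt 0.84). The 9 peptidases had medians of 2.54 and 2.37, with Mep1b at 3.29 and 3.50. The 12 phosphatase and microvillus genes had medians of 0.06 and 0.22, and of -0.19 each after quantile normalization. Of 31 genes of xenobiotic metabolism, 22 (71.0%) were 2-fold higher and none lower, including all 10 measured cytochromes (median 1.99, wt/wt 1.96). Fatty acid oxidation and ketogenesis had 3 of 17 higher, 17.6% beside 12.2% of all genes, against 4 in wt/wt organoids (medians 0.66 and 0.46). The 3 were Acadm (1.58 and 1.67), Hadh and Ehhadh, all enzymes of beta-oxidation. Subunits of the respiratory chain had 21 of 37 (56.8%) higher (1.20 and 0.94), with succinate dehydrogenase subunit Sdhd at 2.31 and 1.78.

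Paneth and goblet cell lists were lower at day 6 in fl/fl organoids, by more than in wt/wt organoids. Of 14 measured Paneth genes, 9 were 2-fold lower and 1 higher in fl/fl organoids, against 2 lower and 1 higher in wt/wt organoids. The fl/fl counts were 64.3% and 7.1%, beside 2.9% and 12.2% of all genes. In wt/wt organoids 2.97% of all genes were lower and 18.3% higher. The medians of the Paneth genes were -1.28 and -0.57. In 13 of 14 the fl/fl difference was the lower, against 6613 of all 11392 genes. All 14 were brighter in fl/fl organoids at day 4, against 7595 of all genes. However, 4 of the 14 were among the 12 lower genes picked by this same order. The list was also chosen with earlier results of these data known, so these counts are no support. Clps, a colipase, read 1668 at day 4 and 384 at day 6 in fl/fl, and 993 and 361 in wt/wt organoids (-2.07 and -1.42), and Mptx1, a mucosal pentraxin, 139 at day 4 and 23.6 at day 6 in fl/fl, and 67.1 and 18.9 in wt/wt organoids (-1.97 and -1.25). The brightest members had smaller differences. Lyz1 read 24590.5 and 20598 in fl/fl and 22578 and 23031 in wt/wt organoids (-0.26 and 0.03), with the fl/fl value of day 4 the highest of any probe set on its array. Ang4 differed by -0.98 and -0.53 and Itln1 by -0.96 and 0.10. Guca2b, the one member 2-fold higher, is also made by enterocytes (1.20 and 1.12; 0.92 in fl/fl organoids after quantile normalization).

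Among 20 goblet cell genes, 6 were 2-fold lower and 1 higher in fl/fl organoids, against 0 and 3 in wt/wt organoids. The fl/fl counts were 30% and 5%, beside 2.9% and 12.2% of all genes. In wt/wt organoids 2.97% of all genes were lower and 18.3% higher. The medians of the goblet genes were -0.43 and 0.28. After quantile normalization they were -0.63 and -0.18, so that the wt/wt median changed sign and the fl/fl median did not. Spdef, a transcription factor of goblet and Paneth cells, read 264 at day 4 and 89.0 at day 6 in fl/fl, and 134 and 88.2 in wt/wt organoids (-1.42 and -0.52). Tff3, a trefoil peptide, differed by -1.08 and -0.55, the stress sensor Ern2 by -1.57 and -0.84 and Bcas1 by -1.63 and -0.63. The one higher gene, the membrane mucin Muc3 (2.88 and 2.70), is made by enterocytes as well. Beside these differences, Gapdh had the smaller ratio of 5' to 3' signal in fl/fl organoids at day 4 (0.142, wt/wt 0.208) and the greater one at day 6 (0.524, wt/wt 0.411), and the part of this was not tested.

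**Figure D3:**
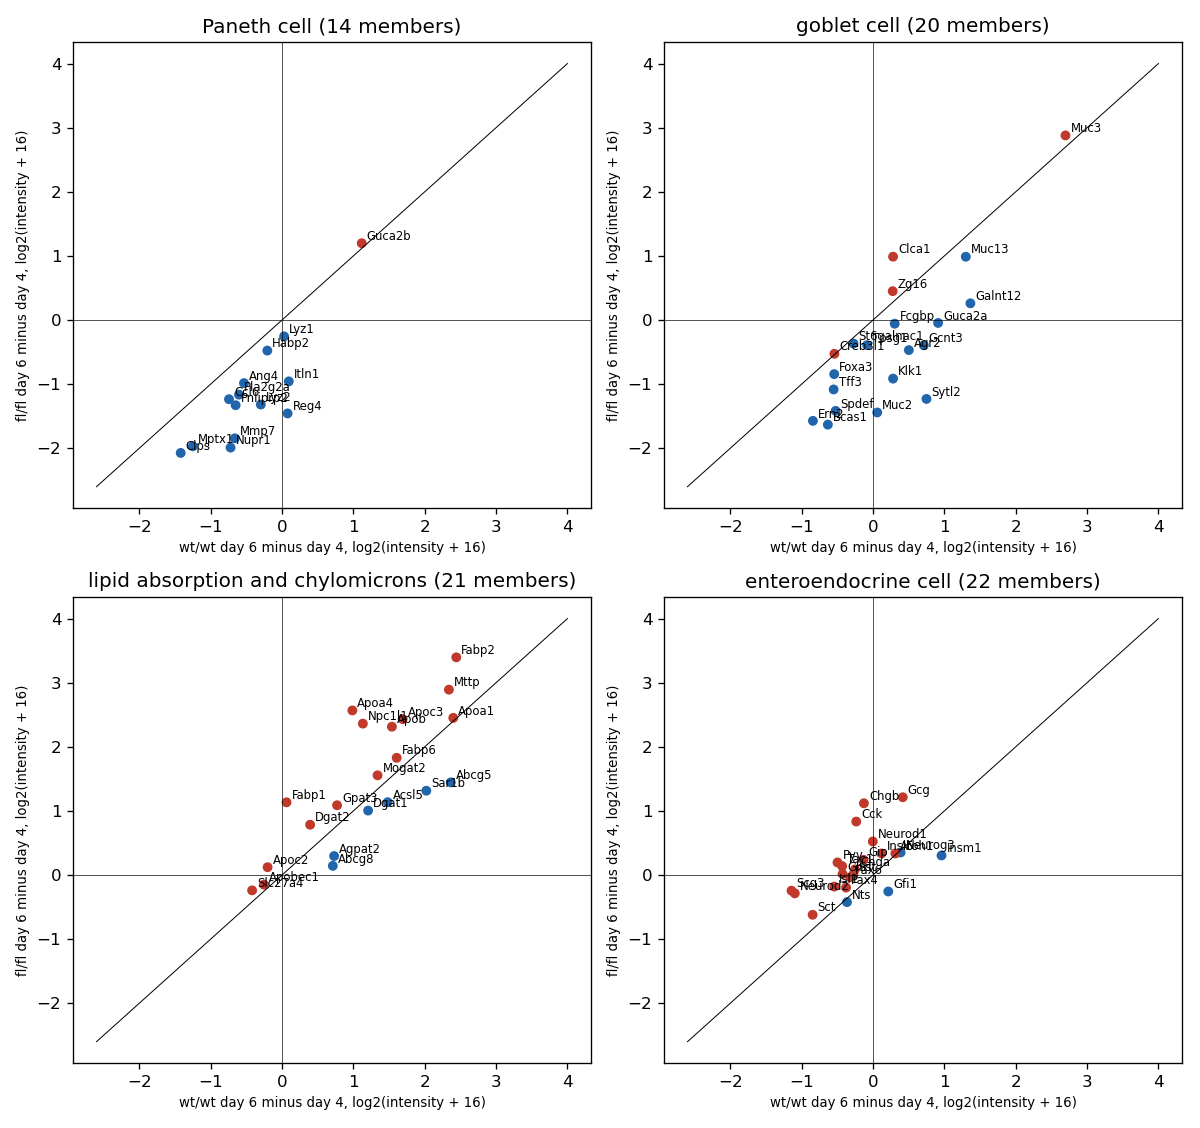
Day 6 minus day 4 difference of each measured member in wt/wt (x) and fl/fl organoids (y), log2(intensity + 16), for the Paneth, goblet, fat absorption and enteroendocrine lists, 1 array per group; points below the diagonal (blue) had the lower fl/fl difference and points above it (red) the higher. In the Paneth panel 13 of 14 points lie below it, and in the enteroendocrine panel 18 of 22 lie above it.

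Hormone genes had a median day difference near that of all genes in fl/fl organoids and below it in wt/wt organoids. Of 13 hormone and granin genes, 2 were 2-fold higher in fl/fl organoids, 15.4% beside 12.2% of all genes, and 12 had the higher difference there, against 4779 of all 11392 genes, with medians of 0.14 and -0.27. The granule protein Chgb read 238 at day 4 and 537 at day 6 in fl/fl, and 210.4 and 191 in wt/wt organoids (1.12 and -0.13). Proglucagon, Gcg, read 87.5 at day 4 and 224 at day 6 in fl/fl, and 48.9 and 70.7 in wt/wt organoids (1.21 and 0.42), and Cck read 32.3 at day 4 and 70.2 at day 6 in fl/fl, and 27.4 and 20.9 in wt/wt organoids (0.83 and -0.23). Chgb and Gcg were no longer 2-fold after quantile normalization (0.85 and 0.95). The 9 transcription factors of this lineage had medians of -0.04 and 0.00, and Sct, secretin, was lower in both genotypes (-0.62 and -0.85). For the whole enteroendocrine list the medians were 0.11 and -0.26.

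Of 13 measured tuft cell genes, 2 were 2-fold higher in fl/fl organoids, Alox5ap and Rgs13 as given above. This is 15.4% beside the 12.2% of all genes, and the median was 0.17 (wt/wt 0.06). Alox5ap passed the filter only through the fl/fl day 6 value that also called it, so its count is no support. The defining markers Dclk1, Trpm5 and Pou2f3 summed to an intensity of 85.0 at day 4 and 122 at day 6 in fl/fl organoids, and to 96.9 and 91.4 in wt/wt organoids. Dclk1 differed by 0.92 and 0.06 and Avil, an actin regulator of tuft cells, by 0.88 and 0.48. Of the 3 Dclk1 probe sets above the filter, 2 were higher at day 6 in fl/fl organoids. The brightest read 11.8 at day 4 there, below the filter's intensity.

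The Id genes, which BMP signalling induces, were 2-fold higher at day 6 in fl/fl organoids. Beside Id3, Id1 read 87.9 at day 4 and 285 at day 6 in fl/fl, and 58.0 and 103 in wt/wt organoids (1.54 and 0.68) and Id2 read 116 at day 4 and 293 at day 6 in fl/fl, and 92.3 and 158 in wt/wt organoids (1.23 and 0.69), so that all 3 had the larger difference in fl/fl organoids and the highest value on its day 6 array. After quantile normalization Id2 was at 0.98. Krt20, a keratin of differentiated cells, read 180.1 at day 4 and 767 at day 6 in fl/fl, and 190.2 and 534 in wt/wt organoids. Of 20 villus genes 8 were 2-fold higher (40%, beside 12.2% of all genes) and none lower (medians 0.65 and 0.48). The antimicrobial lectin Reg3b (3.22 and 4.29), its relative Reg3g (2.36 and 2.53) and Tmigd1 (2.98 and 3.99) had differences no larger in fl/fl than in wt/wt organoids.

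Most stem cell genes and most Wnt targets had the lower day difference in fl/fl organoids. Of 21 stem cell genes, 8 were 2-fold higher in fl/fl organoids (38.1%, beside 12.2% of all genes), against 11 in wt/wt organoids. The medians were 0.89 and 1.32, and 15 of 21 had the lower difference in fl/fl organoids, against 6613 of all 11392 genes. Rnf43, which removes Wnt receptors, read 332 at day 4 and 283 at day 6 in fl/fl, and 179 and 468 in wt/wt organoids (-0.22 and 1.32). Lgr5, the marker of crypt base stem cells, read 405 at day 4 and 706 at day 6 in fl/fl, and 262 and 983 in wt/wt organoids (0.78 and 1.85), although its 2 probe sets disagreed in direction in fl/fl organoids. Lrig1 (1.70 and 3.03) and Axin2, a feedback inhibitor of Wnt (1.04 and 2.26), had the same order. Olfm4 (3.10 and 2.94) did not. Of 22 Wnt targets, 5 were 2-fold higher in fl/fl organoids (Axin2, Birc5, Cldn2, Myc and Znrf3) and 2 lower. These were 22.7% and 9.1%, beside 12.2% and 2.9% of all genes. In wt/wt organoids 9 were higher and 1 lower. The medians were 0.05 and 0.66, and 15 of 22 had the lower difference in fl/fl organoids. The 2 that were 2-fold lower in fl/fl organoids were Mmp7 and Nkd1 (-1.76 and -1.90). The Notch list, with Hes1 higher (1.22 and 1.30) and Spdef lower, had medians of -0.15 and 0.02. The intestinal transcription factors had medians of -0.01 and 0.14. Maf alone of them was 2-fold higher (1.20 and 0.88), with 2 of its 3 probe sets above the filter in this direction. After quantile normalization Maf (0.97), Hes1 (0.97), Axin2 (0.77), Cldn2 (0.93) and Myc (0.89) were no longer 2-fold, and the intestinal transcription factors Klf4, Ehf, Foxa3 and Smad4 were 2-fold lower.

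Genes of injured or fetal epithelium had medians below that of all genes at day 6. Of 23 measured, 6 were 2-fold lower and 1 higher in fl/fl organoids (medians -0.41 and -0.19). These were 26.1% and 4.3%, beside 2.9% and 12.2% of all genes. In wt/wt organoids the counts were the same, 6 lower and 1 higher. After quantile normalization the median difference between the genotypes was -0.06. Beside Clu, Msln and Ccn2, the YAP target Ankrd1 read 47.5 and 7.65 in fl/fl and 33.1 and 6.57 in wt/wt organoids (-1.43 and -1.12) and Basp1 differed by -1.65 and -1.77. The growth factor Ereg was the one higher in fl/fl organoids (1.23 and 1.60).

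Cell division genes had medians above that of all genes at day 6 in both genotypes, although Tacc3 was low in fl/fl organoids on both days. Of 63 mitotic genes, 19 were 2-fold higher (30.2%, beside 12.2% of all genes) and 1, the condensin gene Ncapg, lower (medians 0.72 and 0.78). Top2a, the topoisomerase of condensing chromosomes, read 214 at day 4 and 1018 at day 6 in fl/fl, and 207 and 765 in wt/wt organoids (2.17 and 1.81), Ube2c, which ends mitosis, differed by 2.18 and 1.32 and the kinase Cdk1 by 1.78 and 1.40. S phase genes had 12 of 40 (30%) higher, with medians of 0.64 and 0.79. The replication clamp Pcna read 326 at day 4 and 2018 at day 6 in fl/fl, and 333 and 1354 in wt/wt organoids (2.57 and 1.97). Of the 10 measured partners of Tacc3, 2 were 2-fold higher in fl/fl organoids, 20% beside 12.2% of all genes, against 3 in wt/wt organoids. The 2 were Ckap5, which encodes ch-TOG (1.19 and 0.33), and Tpx2, a spindle assembly factor (1.09 and 1.23). Cltc, the clathrin heavy chain, differed by 0.82 and 1.08. Tpx2 was no longer 2-fold after quantile normalization (0.89), which left 1 of 10. The median of the 10 was 0.43 in fl/fl and 0.28 in wt/wt organoids.

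Targets of p53 were called in both directions in fl/fl organoids, the lower ones at a greater share than among all genes. Of 37, 4 were 2-fold higher (10.8%, beside 12.2% of all genes) and 5 lower (13.5%, beside 2.9%). In wt/wt organoids 5 were higher and 2 lower. The medians were -0.12 and -0.03, and 24 of 37 fl/fl differences were below 0, against 5678 of all 11392 genes. Perp, a desmosome protein, differed by 1.35 and 1.05 and the pro-death gene Pmaip1 by 1.25 and 0.92, while Sesn2, which restrains growth signalling, differed by -1.32 and -1.30 and the small GTPase Rap2b by -1.35 and -0.69. The others 2-fold higher were Apaf1 and Ckap2, and those 2-fold lower were Btg2, Mdm2 and Psrc1. After quantile normalization Apaf1 (0.85) and Ckap2 (0.77) were no longer 2-fold, and 8 of 37 genes were lower, against 672 of all 11392. Regulators of p53 had medians of 0.29 and 1.16. In fl/fl organoids 1 of 11 was 2-fold higher (9.1%, beside 12.2% of all genes), against 6 in wt/wt organoids. The one in fl/fl organoids was Casp2, a caspase (1.82 and 1.38). Apoptosis regulators had 7 of 26 higher in fl/fl organoids (26.9%, beside 12.2% of all genes), against 9 in wt/wt organoids. Their medians were -0.06 and 0.45, with Xiap, a caspase inhibitor, at 1.78 and 1.87. After quantile normalization 5 were higher and 2 lower in fl/fl organoids. The senescence list had 1 higher and 1 lower of 13 (0.14 and -0.14): Lmnb1, a lamin (1.20 and 0.54), and Vegfa, an angiogenic factor (-1.43 and -2.27). Each was 7.7% of the list, beside 12.2% higher and 2.9% lower among all genes. Of the 2 probe sets of Vegfa above the filter, only 1 was lower in fl/fl organoids. Lmnb1 was at 0.92 after quantile normalization.

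Hypoxia and glycolysis genes had medians of opposite sign in the genotypes, also after quantile normalization (0.09 and -0.60). Of 30, 7 were 2-fold higher and 1 lower at day 6 in fl/fl, and 6 higher and 6 lower in wt/wt organoids. The fl/fl counts were 23.3% and 3.3%, beside 12.2% and 2.9% of all genes. In wt/wt organoids 18.3% of all genes were higher and 2.97% lower. The medians of the list were 0.35 and -0.24. Egln3, an oxygen sensor that hypoxia induces, read 145 at day 4 and 222 at day 6 in fl/fl, and 235 and 67.1 in wt/wt organoids (0.56 and -1.59). Bnip3, a mitophagy receptor, read 104 at day 4 and 181 at day 6 in fl/fl, and 216 and 65.0 in wt/wt organoids (0.72 and -1.52). For both, the wt/wt array of day 6 was the lowest of the 4. Ldha, lactate dehydrogenase, read 938 at day 4 and 2027 at day 6 in fl/fl, and 1037 and 966 in wt/wt organoids (1.10 and -0.10), with the fl/fl array of day 6 alone at the top; after quantile normalization its fl/fl difference was 0.83. By the rule, the largest in this list were Slc16a1, a lactate carrier (1.74 and 2.17), Car12, a carbonic anhydrase (1.46 and 2.17), Vegfa and Mxi1 (1.23 and 0.46). The probe sets of Vegfa disagreed, as given above. After quantile normalization the 2-fold genes in fl/fl organoids were Slc16a1 and Car12, higher, and Slc2a1 and Vegfa, lower, and Mxi1 was at 0.98.

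The unfolded protein list had 3 of 33 2-fold higher and 3 lower in fl/fl organoids, against 10 and 1 in wt/wt organoids (medians -0.15 and 0.42), with the chaperones Pdia3 at 1.73 and 2.17 and Canx at 1.65 and 2.19. The other one higher was Dnajb9, and the lower ones were Ern2, Sesn2 and Mthfd2. Medians in fl/fl and wt/wt organoids were 0.50 and 0.43 for cholesterol synthesis (8 of 27 higher; Idi1, 1.79 and 0.85), 0.13 and 0.31 for heat shock and immediate early genes (Hspd1, Hspe1 and Zfp36 higher of 21; Hspd1, 1.76 and 1.50), and -0.12 and -0.11 for interferon and antigen presentation (B2m, H2-K1 and H2-D1 higher and Oas1a lower of 20; B2m, 3.14 and 2.81). They were 0.04 and 0.24 for cytoskeleton and adhesion (7 of 37 higher, and Lama5, Lamb3 and Tubb2b lower; Ocln, a tight junction protein, 2.67 and 2.05), 0.53 and 0.58 for housekeeping genes (B2m, Hprt, Sdha and Tfrc higher of 13), and 0.88 and 1.29 for epithelial markers (Cdh1, Cdh17, Cldn7 and Epcam higher of 8; Epcam, 1.69 and 2.39), the last with the smaller difference in fl/fl organoids in 8 of 8. Mesenchymal markers above the filter (6, with Fn1 lower) had -0.41 and -0.65, immune markers (5, with Lyz2 lower) -0.21 and -0.33, and endothelial markers (3) -0.08 and -0.01. Shares of 2-fold higher genes in fl/fl organoids were 9.09% (unfolded protein), 14.3% (heat shock), 15% (interferon), 18.9% (cytoskeleton), 29.6% (cholesterol), 30.8% (housekeeping) and 50% (epithelial). Among all genes the share was 12.2%. After quantile normalization the fl/fl medians of the Wnt (-0.03), senescence (-0.08), heat shock (-0.13) and cytoskeleton (-0.10) lists lay below 0. Hspe1 (0.79) and Cdh1 (0.85) were then no longer 2-fold.

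**Figure D4:**
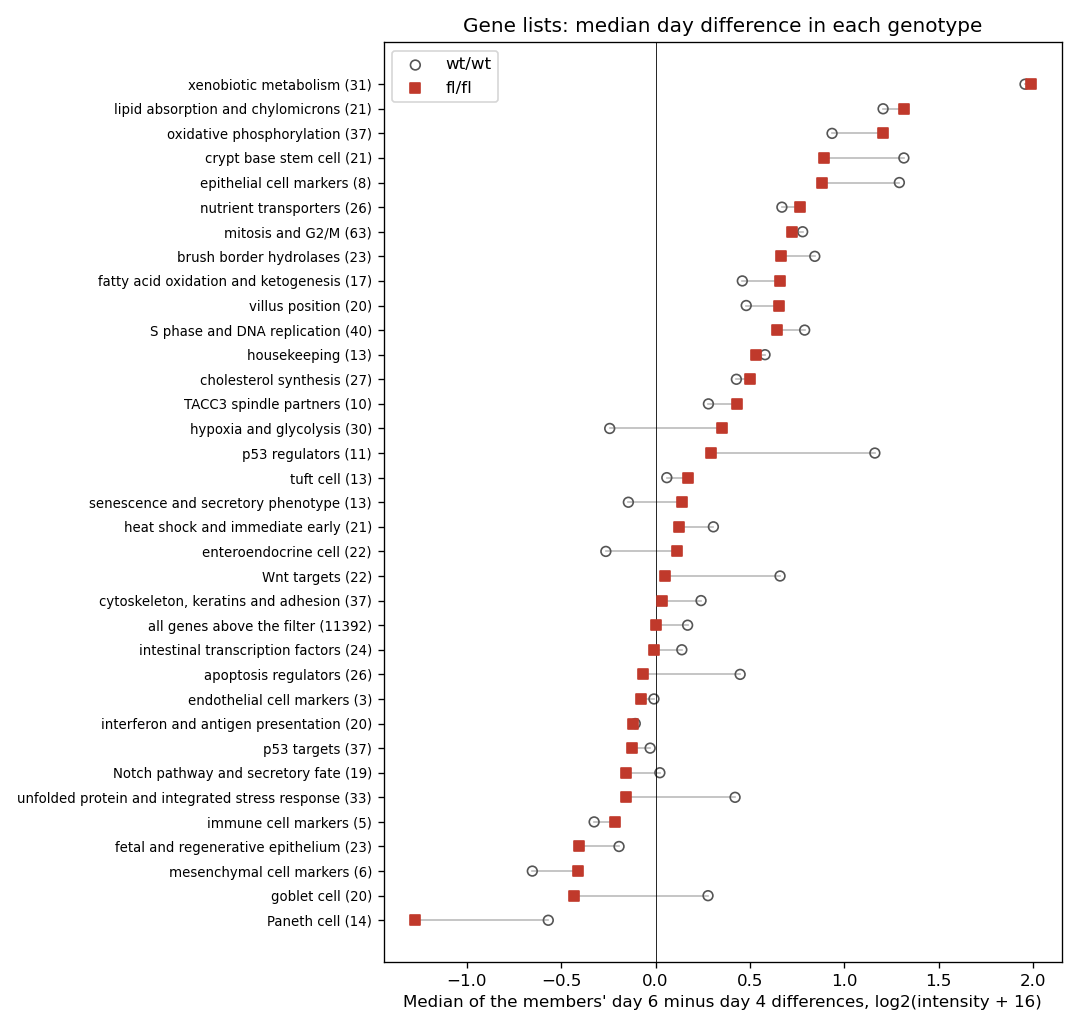
Median day 6 minus day 4 difference of the measured members of each gene list, log2(intensity + 16), in fl/fl (squares) and wt/wt organoids (circles), with the number of members in parentheses, sorted by the fl/fl median; 1 array per group and no error. Xenobiotic metabolism (1.99) is at the top, Paneth cell genes (-1.28) at the bottom, and all genes above the filter lie at 0.00 in fl/fl and 0.17 in wt/wt organoids.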

How the data were processed

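Total RNA of organoids, treated with 4OHT for 24 hours, was labelled from 100 ng with an Affymetrix 3' kit and hybridized to arrays of 45101 probe sets, per the labels' protocols. The authors deposited 1 linear intensity per probe set and array; the summarisation, background correction and scaling are not stated in the labels or the file header. Groups came from the titles, with 1 array each, so the number of arrays limits the precision.

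Symbols came from the platform's table (1 gene for 34958 probe sets, several for 932, 9160 not listed), updated by Entrez ID with RefSeq (GRCm38.p6; 34754 matched). Log2(intensity + 16), filter and brightest probe set are as described above; quantile normalization kept the same probe sets and genes. Named genes were Tacc3 and Apc, the 12 largest fl/fl differences per direction, up to 15 per direction with a difference between genotypes of at least 1 on both scales (ranked by the smaller), where probe sets had 1 direction, and up to 4 members per list by fl/fl difference plus up to 3 of the fl/fl-larger genes. Ang4, Ankrd1, Apob, Apoc3, Axin2, Bnip3, Egln3, Ereg, Guca2b, Id1, Id2, Itln1, Ldha, Lgr5, Lyz1, Rnf43, Tff3 and the rest of the fl/fl-larger genes were added after their values were seen, as were members named to spell out a count. Members and the 34 lists were chosen with earlier results of these data known. Alternatives were quantile normalization, centring, pseudocounts of 64 and 4, 2 filters, the mean of probe sets and no x_at or s_at probe sets. Python 3.11.15, numpy 2.4.6, pandas 2.3.3 and scipy 1.17.1 were used; the class rule was tested on simulated data. Promoters to print were to hold AAAGTCC or ATCAAAG before the start of a gene named by the genotype rule; only an Mmp7 window did, at a start downstream of another, and AGATAA was used instead.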

Additional observations from a re-analysis of the deposited data

Results flagged for a closer look

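For 6 genes the fl/fl day difference and the wt/wt day difference lay in opposite directions, beyond 0.32 in wt/wt organoids. The difference between them was not tested, since each group is 1 array. The fl/fl minus wt/wt day difference was 2.76 for 2610528A11Rik, and -1.98 for Sytl2, -1.76 for Gabbr1, -1.68 for Hoxb4, -1.56 for Serpina1b and -1.52 for Leng1. The medians of 2 gene lists also had opposite signs in the genotypes, with a median fl/fl minus wt/wt difference over their members of -0.63 for goblet cell genes and 0.47 for hypoxia and glycolysis genes, again untested. After quantile normalization the goblet medians no longer had opposite signs (-0.63 in fl/fl and -0.18 in wt/wt organoids). Probe sets that the gene table does not list were used in no comparison. Among the 2724 of them above the filter, 116 were 2-fold higher and 64 lower at day 6 in fl/fl organoids, and 5 higher and 1 lower met the rule for a larger difference in fl/fl organoids.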

How the results depend on the processing

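Counts of called genes depended on the scale. The counts of 1394 higher and 330 lower genes in fl/fl organoids became 710 and 144 with pseudocount 64, and 836 and 91 when probe sets were averaged per gene; the higher count was 808 with a filter at intensity 100, and the lower count 672 after quantile normalization. The 34 higher and 12 lower genes with the larger fl/fl difference became 10 and 4 with pseudocount 64 and 75 and 22 with pseudocount 4, and the 34 became 56 with quantile normalization alone and 17 with the filter at 100. The rule already requires quantile normalization, and leaving out the filter cannot remove a gene. That all 34 and 12 were kept in these 2 settings was thus fixed in advance. All were also kept with pseudocount 4, which widened both sets. Of the 34 and 12, 10 and 4 were kept with pseudocount 64, and 17 and 9 with the filter at intensity 100. After centring each array 27 and 11 were kept, and 27 and 10 with the mean of probe sets. Ramp1 (-0.33), Gabbr1 (-0.55) and Dpep1 (0.93) fell short of a difference of 1 between the genotypes with the mean of probe sets. No difference of a named gene in fl/fl organoids changed sign while called. On the forward strand alone, 3.11% in place of 5.3% of the windows of higher genes held AAAGTCC, and 2.09% in place of 3.93% of the windows of all genes above the filter. Quantile normalization shifted the median difference of all genes by -0.11 in fl/fl and by more in wt/wt organoids (0.17 to -0.12), so list medians are read beside it. No paired analysis was possible because each group holds 1 array and the labels carry no replicate numbers. Dim genes limit the precision: under an intensity of 16.9 little room is left for a 2-fold fall.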
